A study of Mus musculus with 6 samples.

Results

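The genes that make, break down and read out cyclic AMP were measured in the hippocampus of mice that express a mutant BRAF kinase in excitatory neurons. The 53 genes were chosen by symbol among the 20620 genes listed: 10 adenylyl cyclases (Adcy followed by a number), 24 genes whose symbol starts with Pde and a number, 4 regulatory (Prkar) and 2 catalytic (Prkac) subunits of protein kinase A (PKA), and 13 A-kinase anchoring proteins (Akap). Adcyap1 and Adcyap1r1, which encode a neuropeptide and its receptor, were not taken as cyclases. All 53 were tested, in a table that the authors had already cleared of most low-count genes. The comparison asks which transcripts differ when the mutant is expressed in mature excitatory neurons. The 6 mice were males on a C57BL/6J background, each carrying 1 Braf allele with the Q241R substitution, a substitution used to model cardio-facio-cutaneous syndrome. In the 3 controls (Braf Q241R Neo/+, aged 31 or 32 weeks) the allele kept its Neo cassette. The 3 n-Braf mice (Braf Q241R/+ ;CaMKII-Cre, aged 32 to 34 weeks) also carried Cre recombinase under a promoter named for CaMKII. The groups therefore differ in Cre and in the cassette together, and effects of either cannot be told apart from those of the mutant protein. The groups also differ in part in age, the youngest mouse being a control and the oldest an n-Braf mouse.

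As background, adenylyl cyclases turn ATP into cyclic AMP when a receptor activates the G protein Gs, and some of them also answer to calcium. Cyclic AMP releases the catalytic subunits of PKA from its regulatory subunits, anchoring proteins hold the kinase near its targets, and phosphodiesterases hydrolyse the messenger. In hippocampal neurons the pathway is known for its part in long-term potentiation and in transcription through the factor CREB. It meets the RAS-ERK pathway at several points, since cyclic AMP can reach BRAF through the small GTPase RAP1, and ERK phosphorylates long forms of most PDE4 enzymes.

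Levels are given as CPM, counts relative to TMM-adjusted library size, and as CPM per kilobase of annotated exon where genes are compared with each other. Libraries held between 25227112 and 31832245 assigned counts, and the members had between 7 and 31571 counts in a library. Braf was at 116 to 123 CPM in the controls and 184 to 205 CPM in n-Braf. All 10 dentate granule and all 10 CA1 pyramidal markers were detected in every library, as the tissue label implies. Controls 1 and 2 stood apart through choroid plexus RNA: the summed level of 14 choroid plexus markers lay between 144 and 3675 CPM in the controls and between 94.4 and 113 CPM in n-Braf. The 10 dentate granule markers summed to 441 to 537 CPM in the controls and 363 to 635 CPM in n-Braf, with the highest and the lowest value both in the n-Braf group. The 10 CA1 pyramidal markers summed to 451 to 493 CPM in the controls and 515 to 544 CPM in n-Braf. Of them 9 had a log2 fold change above 0 and 1 below, and their mean deviation was higher in n-Braf without overlap. Its part in the members' differences was not tested. In such bulk RNA, fewer cells of a type and less RNA per cell cannot be told apart.

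No member of the cAMP machinery passed an adjusted p of 0.05 in either direction (edgeR's quasi-likelihood test, adjusted over 20604 genes). The smallest adjusted p among the 53 was 0.712, and the share of all genes called was 0%. DESeq2, limma-voom and edgeR's likelihood ratio test also called 0 members, beside 0.379%, 0% and 0.345% of all genes. At an unadjusted p of 0.05 there were 3 members higher in n-Braf, Prkar1b, Pde1a and Pde10a, and 1 lower, Pde8a. These 4 are 7.55% of the members, beside 6.82% of all genes (3.09% higher and 3.73% lower). The members' log2 fold changes ran from -0.46 for Pde6a to 0.33 for Adcy8, with 34 above and 19 below 0 and a median of 0.042. Over all genes 49% were above and 51% below 0, and the median was -0.0042. Among genes with a mean of at least 10 CPM, 32 of 43 members and 57.5% of all genes were above 0. The count at an unadjusted p changed when single libraries were left out. It was 0 in both directions without control 1 or without n-Braf 2, and 5 higher and 2 lower without n-Braf 3. Without n-Braf 2 the log2 fold changes were 0.21 (SE 0.10) for Prkar1b, 0.21 (SE 0.11) for Pde1a, 0.16 (SE 0.077) for Pde10a and -0.25 (SE 0.14) for Pde8a. On all 6 libraries they were 0.21 (SE 0.087), 0.21 (SE 0.089), 0.15 (SE 0.066) and -0.34 (SE 0.14).

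**Figure D1:**
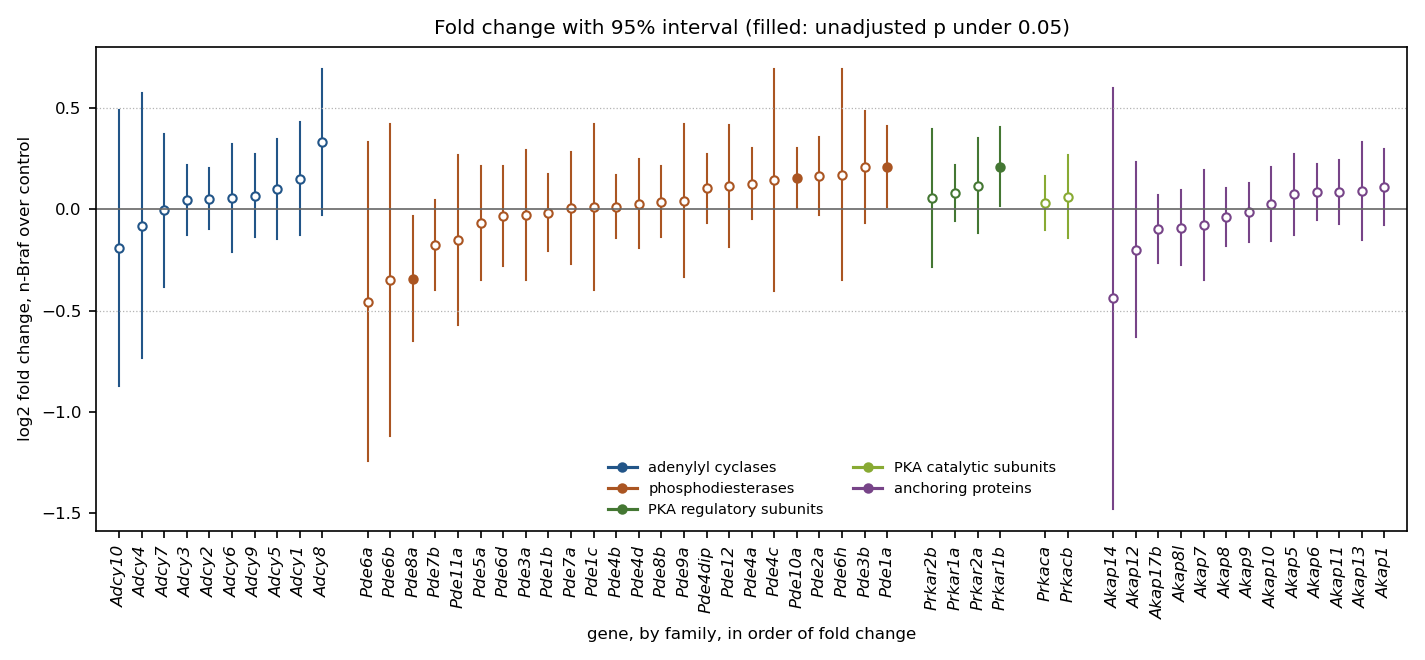
Log2 fold change of each of the 53 members (n-Braf over control) as a point with its 95% interval, grouped and coloured by family; filled points have an unadjusted p under 0.05 and dotted lines mark 0.5 in either direction. The filled points are Pde8a, below 0, and Pde10a, Pde1a and Prkar1b, above 0, and the widest intervals belong to the genes with the fewest counts.

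The 95% interval of the log2 fold change lay wholly within 0.5 of 0 for 42 of the 53 members, against 50.4% of all genes, and for 39 of 43 members with a mean of at least 10 CPM, against 91.3% of all genes at that level. The groups did not overlap in 3 members, Pde10a and Akap6 (higher in n-Braf) and Pde6b (lower), which is 5.66% of the members beside 11.5% of all genes (6.09% higher and 5.44% lower). By family the median log2 fold change was 0.054 for the cyclases (7 of 10 above 0), 0.019 for the Pde genes (15 of 24), 0.098 for the PKA regulatory subunits (4 of 4), 0.047 for the catalytic subunits (2 of 2) and -0.015 for the anchoring proteins (6 of 13). The authors' deposited table likewise has 0 members with an adjusted p under 0.05, and 1 at an unadjusted p of 0.05. Over all genes the same table has 0.141% and 4.9%.

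Among the adenylyl cyclases, Adcy1, which calcium and calmodulin stimulate, had the highest level per length, at 66.2 ± 9.68 CPM per kilobase over the 6 libraries (SD, n = 6). Its share of the summed cyclase level was 42.1% ± 0.358 over the controls and 43.1% ± 4.79 over the n-Braf libraries (SD, n = 3 each). Adcy9, a cyclase that responds weakly to forskolin, followed at 33.2 ± 2.87, and Adcy2, which G protein beta-gamma subunits stimulate, at 24.7 ± 1.22 CPM per kilobase. Adcy5 (14.99), Adcy3 (6.34), Adcy6 (4.79) and Adcy8 (3.44 CPM per kilobase) came next. Adcy7, Adcy4 and the bicarbonate-regulated soluble cyclase Adcy10 lay between 0.130 and 0.584 CPM per kilobase. The ranges over the 6 libraries were separate for every pair of neighbours in this order except Adcy6 and Adcy8. In that pair the level of Adcy6 was the higher in 6 of 6 libraries. Part of Adcy3, 22.1% of its annotated exon bases, overlaps Cenpo on the opposite strand, and the strand setting of the counting is not given in the sources used here.

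**Figure D2:**
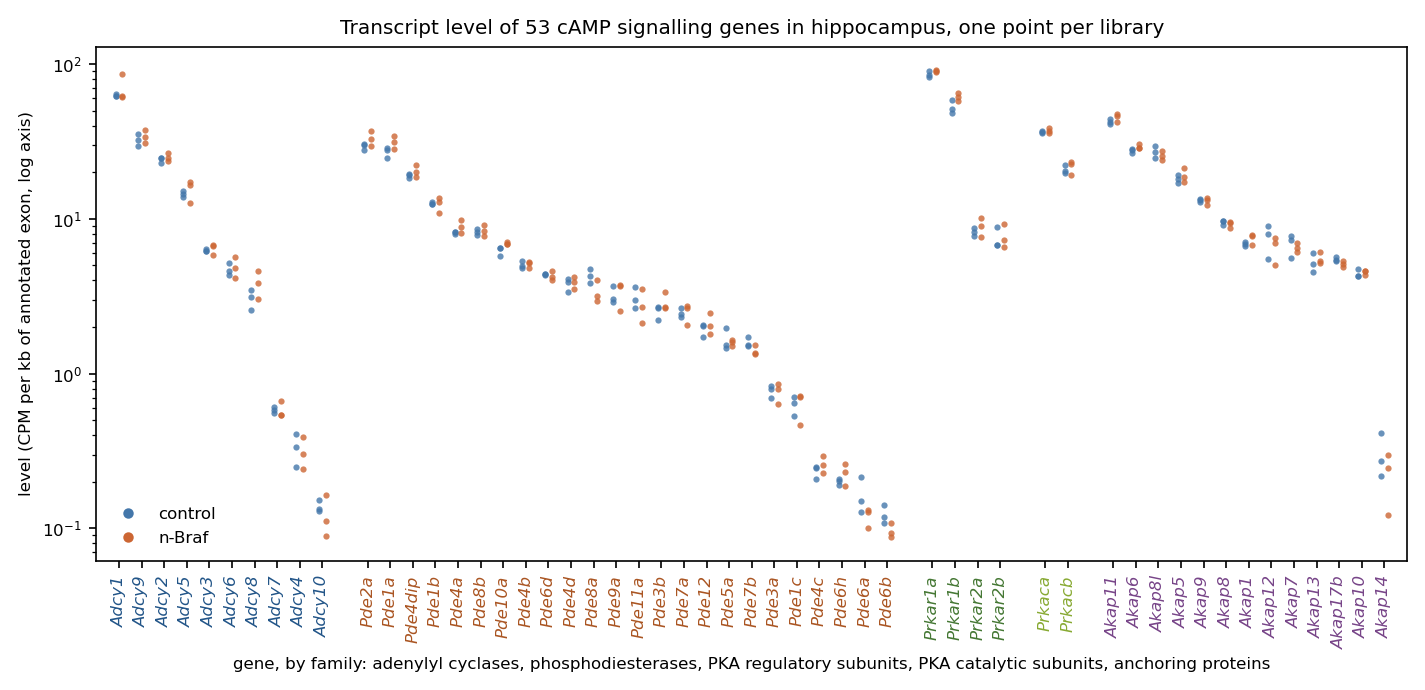
Level of each member in each of the 6 libraries (one point per library, CPM per kilobase of annotated exon, log axis), ordered within its family. Prkar1a and Adcy1 have the highest levels and control and n-Braf points lie close together in most genes; Adcy1 in n-Braf 3 stands above its other 5 points.

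Adcy1 (chromosome 11 at 7063489 to 7178506, plus strand) was at 780, 798 and 777 CPM in controls 1 to 3 and at 775, 766 and 1075 CPM in n-Braf 1 to 3. Only n-Braf 3 was set apart, and the other 5 libraries lay between 766 and 798 CPM. The log2 fold change was 0.15 (SE 0.12), and -0.031 without n-Braf 3. Adcy8, the other cyclase that calcium and calmodulin stimulate directly (chromosome 15 at 64697084 to 64922296, minus strand), was at 25.5, 20.9 and 28.2 CPM in the controls and 37.6, 31.4 and 24.6 CPM in n-Braf. Here n-Braf 1 and 2 were above every control and n-Braf 3 was among the controls. Its log2 fold change, 0.33 (SE 0.16), was the highest of the 53 and had an unadjusted p of 0.0684 in edgeR's quasi-likelihood test. Without n-Braf 3 it was 0.47, and without n-Braf 1 it was 0.17. Adcy5, which calcium inhibits and which is best known from the striatum, was at 109, 98.9 and 104 CPM in the controls and 124, 118 and 91.4 CPM in n-Braf, so that the n-Braf libraries lay on both sides of the controls. For Adcy9 and Adcy2 the log2 fold changes were 0.067 (SE 0.090) and 0.053 (SE 0.066), with overlapping groups.

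**Figure D3:**
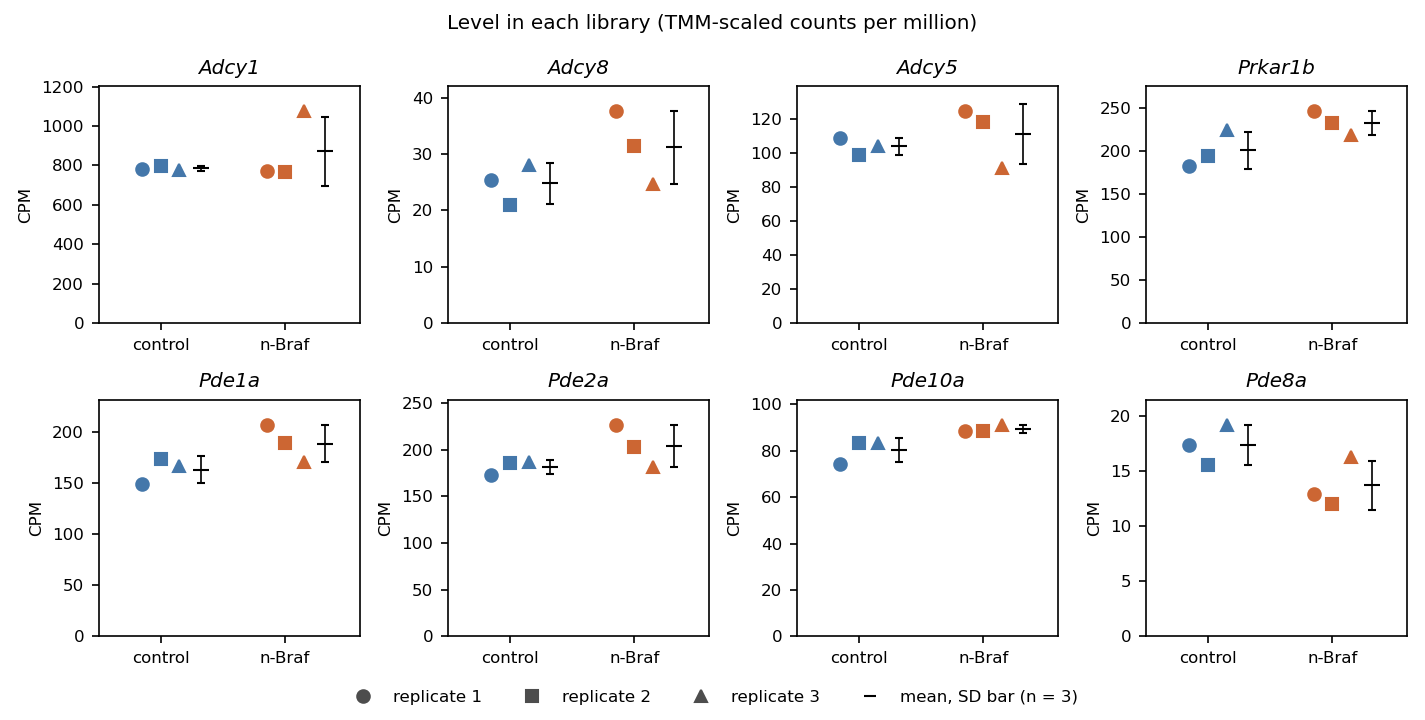
Level of 8 members in each library (TMM-scaled CPM, axes from 0), with controls at left and n-Braf at right; symbols mark the replicate number and the black dash and bar give the mean and SD of 3 libraries. In n-Braf 3 (triangle) Adcy1 is at 1075 CPM, while Adcy8, Adcy5, Prkar1b, Pde1a and Pde2a are lower there than in n-Braf 1 and 2; in Pde10a the groups do not overlap.

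Of the 24 Pde genes, at least 3 are not cyclic nucleotide phosphodiesterases despite the name. Pde4dip encodes myomegalin, a protein of the centrosome and Golgi. Pde6d encodes a carrier of prenylated proteins, and Pde12 an enzyme that acts on RNA ends in mitochondria. Their log2 fold changes were 0.10 (SE 0.075) for Pde4dip, -0.032 (SE 0.11) for Pde6d and 0.11 (SE 0.13) for Pde12. Pde2a, whose enzyme cyclic GMP stimulates, and Pde1a, whose enzyme calmodulin stimulates, had the highest levels per length, at 31.3 ± 3.14 and 29.2 ± 3.31 CPM per kilobase (SD, n = 6). Pde4dip (19.7), Pde1b (12.5), Pde4a (8.52), Pde8b (8.32), Pde10a (6.61) and Pde4b (5.06 CPM per kilobase) followed. The ranges of Pde2a and Pde1a overlapped, with Pde2a the higher in 6 of 6 libraries. Those of Pde4a and Pde8b also overlapped, with Pde4a the higher in 2 of 6. Pde6a, Pde6b and Pde6h, known from photoreceptors, and Pde4c were at 0.110 to 0.247 CPM per kilobase, with 14 counts in the lowest library of Pde6b. Pde6b, the Pde gene whose n-Braf libraries were all below the controls, rests on 14 to 19 counts per library (log2 fold change -0.35, SE 0.34).

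Pde1a (chromosome 2 at 79834453 to 80129458, minus strand) was at 149, 174 and 167 CPM in the controls and 207, 189 and 170 CPM in n-Braf. The n-Braf 3 library lay below control 2, so the groups overlapped (log2 fold change 0.21, SE 0.089, unadjusted p = 0.0425 and adjusted p = 0.730 in edgeR's quasi-likelihood test). Pde2a (chromosome 7 at 101421691 to 101512827, plus strand) was at 172, 186 and 186 CPM against 226, 202 and 181 CPM, again with n-Braf 3 among the controls (log2 fold change 0.17, SE 0.086). Its log2 fold change was 0.079 without n-Braf 1, 0.078 with the mean of neocortical markers as a covariate and 0.052 with that of oligodendrocyte markers. Of the neocortical markers 11 of 13 had a log2 fold change above 0, and all 14 oligodendrocyte markers were below 0 (median -0.34). Both covariates are thus partly aligned with the group. The annotation places a further gene model, Gm45837, over 64.3% of the exon bases of Pde2a on the same strand. Gm45837 is not among the genes listed, and the count of Pde2a was whole in every library. How reads over these bases were assigned is not given in the sources used here. Pde1b, the close relative of Pde1a, had a log2 fold change of -0.016.

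Pde10a, whose enzyme hydrolyses both cyclic nucleotides and is best known from striatal neurons (chromosome 17 at 8525372 to 8986648, plus strand), was at 74.2, 83.5 and 83.3 CPM in the controls and 88.4, 88.7 and 91.2 CPM in n-Braf. All n-Braf libraries were above all controls, by a small margin (log2 fold change 0.15, SE 0.066, unadjusted p = 0.0424 and adjusted p = 0.730 in edgeR's quasi-likelihood test). Without control 1, its lowest library, the log2 fold change was 0.10. Pde8a, which encodes a cyclic AMP-specific enzyme of high affinity (chromosome 7 at 81213596 to 81334533, plus strand), was at 17.3, 15.6 and 19.2 CPM in the controls and 12.9, 12.0 and 16.2 CPM in n-Braf. The n-Braf 3 library lay above control 2 (log2 fold change -0.34, SE 0.14, unadjusted p = 0.0324 and adjusted p = 0.712). Its paralogue Pde8b had a log2 fold change of 0.037, and in the controls made up 5.59% ± 0.123 of the summed level of the Pde genes against 2.92% ± 0.308 for Pde8a (SD, n = 3). The 4 genes of the PDE4 enzymes, which are specific for cyclic AMP and among them include ERK substrates, had log2 fold changes between 0.013 (Pde4b) and 0.14 (Pde4c). Pde4a was at 63.3, 60.7 and 63.1 CPM against 61.7, 74.7 and 68.0 CPM, Pde4b at 53.2 ± 2.75 against 53.7 ± 2.36 CPM and Pde4d at 45.7 ± 4.53 against 46.6 ± 4.44 CPM (SD, n = 3 each). Pde4b and Pde4d were the most closely matched of these in their group means, and their 95% intervals ran from -0.14 to 0.17 and from -0.19 to 0.25 on the log2 scale.

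PKA was present mainly as type I transcripts. Prkar1a had the highest level per length of all 53 members, at 88.1 ± 3.48 CPM per kilobase, followed in its family by the neuronal subunit Prkar1b at 56.9 ± 6.24, while the type II subunits Prkar2a and Prkar2b were at 8.58 ± 0.938 and 7.60 ± 1.20 CPM per kilobase (SD, n = 6). Type I over type II levels gave a ratio of 8.85 ± 0.390 for controls and 9.10 ± 0.428 for n-Braf (SD, n = 3 each). Of the catalytic subunits, Prkaca was above Prkacb per length, at 36.8 ± 1.14 against 21.3 ± 1.81 CPM per kilobase (SD, n = 6), although Prkacb had more counts, its annotated exons being longer (8772 against 2488 bases). Regulatory over catalytic levels stood at 2.61, 2.64 and 2.83 in the controls and 2.767, 2.809 and 2.998 in n-Braf, and the groups overlapped. Transcript ratios do not give the ratio of the proteins.

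Prkar1b (chromosome 5 at 139017306 to 139150001, minus strand) was at 183, 195 and 225 CPM in the controls and 246, 233 and 218 CPM in n-Braf. Control 3 lay above n-Braf 3, so the groups overlapped (log2 fold change 0.21, SE 0.087, unadjusted p = 0.0385 and adjusted p = 0.719 in edgeR's quasi-likelihood test). Against control 3 alone, without the choroid plexus-rich controls 1 and 2, the log2 fold change was 0.048. That fit takes the spread of the n-Braf libraries as that of the single control. Control 3 was the highest control in Prkar1b, so leaving out the other controls lowers the fold change. The part of choroid plexus RNA in the difference was not tested. Prkar1a (chromosome 11 at 109649405 to 109669656, plus strand) was at 366, 358 and 387 CPM against 393, 386 and 394 CPM, with control 3 just above n-Braf 2 (log2 fold change 0.078, SE 0.061). The type II subunits gave 0.12 (SE 0.10) for Prkar2a and 0.057 (SE 0.15) for Prkar2b on the log2 scale, with overlapping groups. Prkaca was at 91.6, 89.6 and 90.3 CPM against 96.7, 92.1 and 88.8 CPM, and Prkacb at 172, 180 and 197 CPM against 206, 199.6 and 167 CPM. In both, n-Braf 3 was the lowest of all libraries. Their 95% intervals on the log2 scale ran from -0.10 to 0.17 and from -0.14 to 0.27.

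RefSeq promoters (GRCm38.p6, 250 bases before to 50 after a start) were listed for 45 of the 53 members, 87 promoters in all, and were searched on both strands for the CREB site TGACGTCA and for an ETS factor site, CCGGAAGT, because CREB and ETS factors lie below PKA and ERK. The CREB site stood in 2 promoters, both of Prkar1a (2.3%), against 1.79% of all 32851 promoters of that length. These are overlapping windows around the same stretch. The ETS site stood in 4 promoters (4.6%), those of Prkar1b, Prkacb, Pde12 and Pde6b, against 3.89% of all. The core TGACG, which the full CREB site contains, stood in 20.7% of the members' promoters and 20.8% of all. The PKA subunit matches are shown with the motif in capitals and 11 bases on each side, each read 5′ to 3′ along the gene's strand, the ETS sites appearing as the reverse complement ACTTCCGG. They lie at chr11:109650889-109650918 (plus strand), chr5:139150159-139150188 (minus strand) and chr3:146813026-146813055 (minus strand), in no annotated exon, and the motif's first base lies 49, 176 and 98 bases before 1 of the 6, 5 and 3 listed starts of the gene.
Prkar1a: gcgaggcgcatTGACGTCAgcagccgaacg
Prkar1b: tttacggcaagACTTCCGGctgcctgggtt
Prkacb: ttgaccgcgtcACTTCCGGcgcgcccgccc
A match of letters is a description of the sequence and says nothing of binding.

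Among the anchoring proteins, Akap11, which holds PKA together with protein phosphatase 1 and GSK3, had the highest level at 43.9 ± 2.51 CPM per kilobase, followed by Akap6 of the nuclear envelope at 28.5 ± 1.18 and Akap8l, a nuclear protein, at 26.4 ± 2.06 (SD, n = 6). The ranges of Akap6 and Akap8l overlapped. Akap5, the postsynaptic anchor of PKA and calcineurin, was at 18.6 ± 1.59 and the centrosomal Akap9 at 13.1 ± 0.497 CPM per kilobase (SD, n = 6). The other 8 ran from 9.37 for Akap8 down to 0.262 for Akap14. Akap6 (chromosome 12 at 52699383 to 53155599, plus strand) was at 395, 419 and 416 CPM in the controls and 449, 427 and 428 CPM in n-Braf. The groups did not overlap, with a log2 fold change of 0.084 (SE 0.061). Akap11 had a log2 fold change of 0.086 (SE 0.070), Akap1 of the outer mitochondrial membrane 0.11 (SE 0.083), Akap17b -0.099 (SE 0.074) and Akap8l -0.090 (SE 0.081), all with overlapping groups. Akap5 was at 116, 131 and 124 CPM against 146, 128 and 117 CPM, a log2 fold change of 0.073 whose 95% interval ran from -0.13 to 0.27. Akap12, known as gravin, was at 58.3, 35.5 and 51.7 CPM in the controls and 45.4, 48.7 and 32.6 CPM in n-Braf, a wide spread within both groups. Akap14, known from cilia, had 7 to 20 counts per library. It was highest in control 1 and lowest in n-Braf 2 (0.746 and 0.220 CPM), the libraries that were also highest and lowest in the mean of 8 ependymal and motile cilia markers (log2 deviations of 0.94 and -0.85). The part of ciliated cells in its difference was not tested.

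The order of the libraries in some members was that of cell type markers. For each of 53 members and 11 marker lists, 583 pairs, the order of the 6 libraries was compared with that of the list's mean log2 deviation; the order was identical in 5 pairs and exactly opposite in 0. The 5 were Adcy1 with dentate granule markers, Adcy8 with neocortical markers, Adcy5 and Prkaca with striatal projection neuron markers, and Pde8a with oligodendrocyte markers. The dentate mean was 0.15, 0.22 and -0.062 in controls 1 to 3 and -0.33, -0.36 and 0.38 in n-Braf 1 to 3, and n-Braf 3 was the highest library in it as in Adcy1. The neocortical mean was -0.13, -0.15 and 0.086 in the controls and 0.23, 0.12 and -0.15 in n-Braf. With this mean as a covariate the log2 fold change of Adcy8 was 0.12 (SE 0.10). The oligodendrocyte mean was 0.23, -0.059 and 0.33 in the controls and -0.28, -0.35 and 0.13 in n-Braf, and with it as a covariate the log2 fold change of Pde8a was -0.073 (SE 0.12). With the neocortical mean as a covariate Prkar1b was at 0.13 (SE 0.075) and Pde1a at 0.13 (SE 0.087), and Pde10a stayed at 0.15 (SE 0.075). Adcy1 was at 0.26 (SE 0.070, unadjusted p = 0.00626 and adjusted p = 0.731) with the dentate mean, an alternative chosen after its values were seen. The striatal mean was 0.228, -0.419 and 0.081 in the controls and 0.368, 0.229 and -0.486 in n-Braf. Control 1 and n-Braf 2 were thus nearly tied, and the order shared with Adcy5 and Prkaca rests on that small difference. The striatal markers are scarce here, with 3 of 9 under 1 CPM on average and a sum of 34.8 to 66.0 CPM per library. Ppp1r1b, also listed as a PKA partner, made up 38.6 of the 66.0 CPM in control 1 and 17.2 of the 34.8 CPM in n-Braf 3. These 5 members were picked out after their values were seen, by their order in these same marker means. The fits of Adcy8, Pde8a and Adcy1 with those means as covariates are therefore not independent of that choice. The part of cell type content in the differences of the 5 members was not tested.

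**Figure D4:**
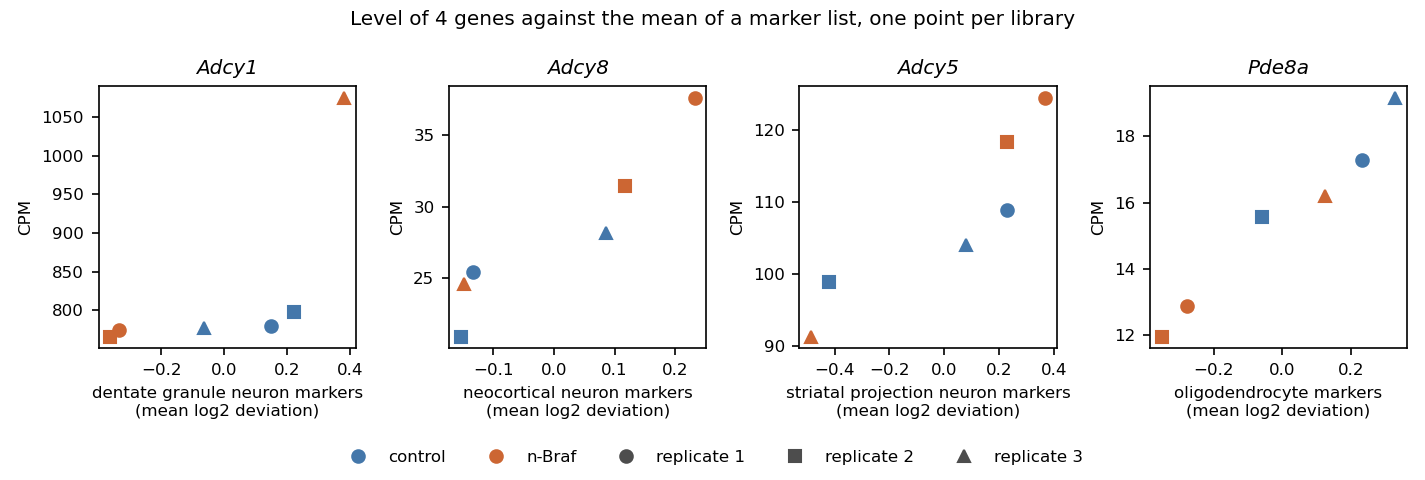
Level of Adcy1, Adcy8, Adcy5 and Pde8a (CPM, axes not from 0) against the mean log2 deviation of dentate granule, neocortical, striatal projection neuron and oligodendrocyte markers, one point per library. In each panel the 6 libraries have the same order on both axes, with control 1 and n-Braf 2 nearly tied in the striatal mean (0.228 and 0.229). In the first, n-Braf 3 alone is far above the rest.

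The rest of the pathway was described by 5 lists, in which no gene passed an adjusted p of 0.05 in edgeR's quasi-likelihood test on all 6 libraries. DESeq2 called Ppp1r1b and Vgf, the likelihood ratio test Vgf, and the quasi-likelihood test without control 3 Ppp1r1b, Vgf and Egr1, while these settings called 0.379%, 0.345% and 0.398% of all genes. Among 23 effectors and partners of PKA, 13 were above 0 (median 0.028), and 4 higher and 2 lower genes had an unadjusted p under 0.05, beside 6.82% of all genes. Ppp1r1b, which encodes the phosphatase inhibitor DARPP-32, was at 38.6, 29.6 and 19.7 CPM in the controls and 19.4, 18.3 and 17.2 CPM in n-Braf (log2 fold change -0.68, SE 0.20, adjusted p = 0.562 in the quasi-likelihood test and 0.0436 in DESeq2). Controls 1 and 2, the libraries rich in choroid plexus markers, were its highest, and against control 3 alone the log2 fold change was -0.11 (SE 0.14). Arpp19, which encodes a PKA-phosphorylated inhibitor of protein phosphatase 2A, was at 48.6, 52.3 and 56.7 CPM against 66.1, 58.8 and 60.7 CPM. Its n-Braf libraries were all above the controls, as in 6.09% of all genes (log2 fold change 0.24, SE 0.078). Against control 3 alone, its highest control, the log2 fold change of Arpp19 was 0.13. The part of choroid plexus RNA in the differences of Ppp1r1b and Arpp19 was not tested.

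Of the 7 G alpha subunits that act on cyclases, 3 were above 0 (median -0.023), and 0 had an unadjusted p under 0.05. Gnao1, Gnai3 and Gnaz came first by p, with log2 fold changes of 0.15 (SE 0.066), -0.12 (SE 0.089) and 0.092 (SE 0.080). Of 19 Gs-coupled receptors 10 were above 0 (median 0.026), and 3 higher and 0 lower had an unadjusted p under 0.05, beside 3.09% and 3.73% of all genes. These were the VIP receptor Vipr1 at 18.6, 15.7 and 20.2 CPM against 21.8, 28.9 and 22.5 CPM, the orphan receptor Gpr3 at 1.53, 1.76 and 1.64 CPM against 2.60, 3.08 and 1.94 CPM, and the beta-adrenergic receptor Adrb1 at 13.4, 14.3 and 13.1 CPM against 18.8, 16.6 and 14.6 CPM. In each of the 3 the n-Braf libraries were all above the controls, as in 6.09% of all genes. Against control 3 alone 0 receptors had an unadjusted p under 0.05 and the list's median was 0.15, with Vipr1 at 0.27, Gpr3 at 0.64 and Adrb1 at 0.35. Of 18 transcripts known to be induced through CREB, many of them also ERK-induced, 13 were above 0 (median 0.14). At an unadjusted p of 0.05 there were 4 higher and 0 lower, beside 3.09% and 3.73% of all genes. First by p were Vgf, Egr1 and Fosb. Vgf, which encodes a neuropeptide precursor, was at 69.4, 54.2 and 68.1 CPM against 126, 119.5 and 100.1 CPM. Its n-Braf libraries were all above the controls, as in 6.09% of all genes (log2 fold change 0.85, SE 0.11, adjusted p = 0.135 in edgeR's quasi-likelihood test, 5.11e-10 in DESeq2 and 3.34e-07 in the likelihood ratio test). Over all 6 libraries the log2 fold changes of Egr1 and Fosb were 0.47 and 0.52 (SE 0.14 and 0.16, in that order). Neither gene had overlapping groups, with all n-Braf libraries higher, as in 6.09% of all genes. Against control 3 alone the list's median was -0.12, while Vgf was at 0.76, Egr1 at 0.14 and Fosb at 0.26. Control 3 was the highest control in Egr1 (100 CPM) and in Fosb (9.27 CPM), so leaving out the other controls lowers both fold changes. Of 8 genes of cyclic GMP synthesis and readout 4 were above 0 (median -0.0017) and 0 had an unadjusted p under 0.05. The neuronal nitric oxide synthase Nos1 came first by p (-0.26, SE 0.13), followed by the receptor guanylyl cyclase Npr1 (-0.65, SE 0.33) and the kinase Prkg2 (0.50, SE 0.31), each with overlapping groups. Against control 3 alone Nos1 was at -0.20, Npr1 at 0.14 and Prkg2 at 0.15.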

How the data were processed

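Hippocampal RNA from 6 mice, 3 controls and 3 n-Braf, was sequenced with 1 strand-specific SMART-Seq library per mouse, per the labels' protocols. The submitters' processing notes name bcl2fastq 2.20, fastp 0.20.1, STAR, RSEM, edgeR 3.36.0 and the build mm10; the sources used here give neither the strand setting nor the annotation. Deposited values are expected counts per gene, the estimates of RSEM, and 9 of the 53 members had a count that was not whole in at least 1 library. Per the file headers, each gene also has a log2 fold change, a mean log2 CPM and p-values, raw and adjusted, from the authors.

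Expected counts were rounded. Genes kept by filterByExpr of edgeR 4.0.16 (minimum count 10) numbered 20604. They were scaled by TMM and tested in R 4.3.3 with edgeR's quasi-likelihood test, with the group as the only term and Benjamini-Hochberg adjustment over all of them. Intervals are at 95%, from the test's standard error and degrees of freedom. Exon lengths and coordinates are from GENCODE M21 on GRCm38, which mm10 names, and isoform use can shift a level per length. Marker deviations are means over a list of log2 CPM (prior count 2) minus each gene's mean over the libraries. The fit was tested on simulated data.

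All PKA subunits were named. In each other family the named members were the 4 with the smallest p, the 3 with the highest level per length and those at an unadjusted p of 0.05. Pde4dip, Pde6d and Pde12, which encode no cyclic nucleotide phosphodiesterase, were also named. Of each pathway list up to 3 genes with the smallest p were named, and 1 of these is not reported here. Other members were given by level or range; Pde1b, Pde6b, Pde8b, Akap5, Akap12, Akap14 and the PDE4 genes were chosen for fuller description after their values were seen. The members and lists were chosen with earlier results of these data known. The labels number each mouse separately, so replicates are separate animals. Alternatives included DESeq2 1.42.0, limma-voom (limma 3.58.1), other scalings and filters, covariates, and leaving out libraries.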

Additional observations from a re-analysis of the deposited data

How the results depend on the processing

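No member passed an adjusted p of 0.05 in either direction under any of 22 alternatives, or at an adjusted p of 0.1. Of these alternatives 14 called no gene at all and 8 called between 1 and 82, among them DESeq2 with 78, the likelihood ratio test with 71 and the fit without control 3 with 82. The counts at an unadjusted p of 0.05 (3 higher, 1 lower) moved: higher members numbered 0 with library size alone as the scaling or with edgeR's likelihood ratio test, 1 with the replicate block, without controls 1 and 2 together or with the neocortical mean as a covariate, 2 with the myelin or dentate mean, 4 with age as a covariate, and 0 to 5 when single libraries were left out. Lower members numbered 0 with the neocortical and 2 with the myelin mean as a covariate, and 0 to 2 when single libraries were left out. Same-numbered libraries did not deviate together (correlations over 20604 genes of 0.103, -0.046 and -0.014), so the numbers were not taken to pair them, and the replicate block changed no other call.

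Family medians moved under some of the alternatives, as follows. With age as a covariate they were 0.094 for the Pde genes, 0.26 for PKA regulatory and 0.15 for PKA catalytic subunits, and 0.093 for all 53. Age is partly aligned with the group, so this fit separates the 2 poorly. With the neocortical mean they were -0.018 for the Pde genes and 0.0034 for all 53, with the myelin mean 0.0034 for all 53, and with the dentate mean, added after seeing the data, -0.014 for the cyclases and 0.0072 for all 53. The neocortical and myelin means are partly aligned with the group too. Without controls 1 and 2 the anchoring median was 0.031. Leaving out single libraries gave medians of 0.032 to 0.069 for the cyclases, -0.011 to 0.062 for the Pde genes, 0.071 to 0.18 for the regulatory and -0.00019 to 0.10 for the catalytic subunits, -0.049 to 0.0077 for the anchoring proteins and 0.0022 to 0.050 for all 53.

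Of 23 named members, 13 kept their sign in all 22 alternatives. Reversed log2 fold changes were, with age, -0.12 for Adcy1, -0.064 for Adcy2, -0.0048 for Adcy9, -0.0083 for Akap11 and 0.072 for Pde6d. With the neocortical mean they were -0.027 for Adcy5, -0.045 for Prkacb and -0.13 for Prkar2b, with the myelin mean -0.065 for Adcy5 and -0.041 for Prkacb, and with the dentate mean -0.020 for Adcy5, -0.025 for Prkacb and -0.062 for Prkar2b. Without controls 1 and 2 Prkacb was at -0.042 and Prkar2b at -0.20. Leaving out single libraries gave -0.031 to 0.24 for Adcy1, -0.0051 to 0.14 for Adcy9, -0.016 to 0.21 for Pde12 and -0.089 to 0.0082 for Pde6d, each reversed without n-Braf 3. It gave -0.0026 to 0.059 for Prkaca, reversed without n-Braf 1, and -0.10 to 0.20 for Prkar2b, reversed without control 1, control 2 or n-Braf 1. The cause of these changes was not tested. Depth limits Adcy4, Adcy10, Pde4c, Pde6a, Pde6b, Pde6h and Akap14, with at most 65 counts in any library and intervals reaching beyond 0.5.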
